A study of Mus musculus with 16 samples.

Results

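The comparison described here is the Nlrc5 guide against the scramble guide in cultured B16F10-TDM cells, 4 of the 16 libraries of the series. B16F10 is a mouse melanoma line. B16F10-TDM is a line derived from it, and the labels do not say what TDM stands for or whether the line is 1 clone. Both groups were TDM cells in culture. One group carried a scramble sgRNA (sgScramble, 2 libraries) and the other an sgRNA against Nlrc5 (sgNlrc5, 2 libraries), both introduced by transduction. The sgRNA sequence is not analysed here. The series title names targeted demethylation and activation of NLRC5. The members of the comparison were all genes in the TDM table whose normalised counts averaged 10 or more over the 4 libraries, 11989 of the 13143 listed. The other 1154 listed genes fell below that level. The second line of the series, B16F10-TDMa in culture, carried the same pair of guides (2 libraries each) and was used only for comparison.

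NLRC5 is a transactivator of MHC class I genes. It has no DNA-binding domain of its own and works through factors already bound at class I promoters, among them RFX and NF-Y. Germline genes are normally kept silent in somatic cells, many of them by methylation of CpG-rich promoters. Hypoxia-inducible factors bind short sites with an ACGTG or GCGTG core and raise glycolysis and mitophagy genes when oxygen is low. Motile cilia need axonemal proteins that most dividing cells use little, while primary cilia occur widely.

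Values are normalised counts in the order sgScramble replicate 1, sgScramble replicate 2, sgNlrc5 replicate 1 and sgNlrc5 replicate 2. Fold changes are sgNlrc5 minus sgScramble on log2(normalised count + 1), a scale that understates the change of low genes, and the error after one is a standard error. A gene was called where the limma Benjamini-Hochberg adjusted p, taken over all 11989 genes, was under 0.05. The gene lists used below were drawn up with earlier results of these data known. A count of called members is therefore not an independent result about a list. The recovered reads over listed genes ran from 12622732 to 15935149 per library, and the 10 most abundant genes took 5.57% to 5.84% of them. The labels do not say whether the replicates were separate cultures, so the p-values measure the spread between these libraries. Replicates differed by more than counting noise, with a chi-square per degree of freedom of 2.48 between the sgScramble libraries and 3.44 between the sgNlrc5 libraries. All 10 melanocyte markers were listed, and their summed count ran from 113423 to 116596. Among them Dct averaged 58193, while Tyr averaged 12.3, near the lower limit of testing. Of other cell types, 2 of 6 T cell markers were listed (Cd3d and Lck, summed count 581 to 699), 2 of 6 macrophage markers (Cd68 and Lyz2, 400 to 442) and 3 of 6 fibroblast markers (276 to 413). Of 4 endothelial markers 1 was listed (Pecam1, 7.87 to 12.3), and Vwf, an endothelial gene outside these markers, averaged 461. The T cell genes Cd3e, Cd3g, Cd4 and Cd8a, the leukocyte gene Ptprc, and all 3 keratinocyte markers were not among the listed genes.

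One library stood apart in its relation to transcript length. In sgNlrc5 replicate 1, genes with a longest annotated transcript over 12000 bases had a median log2 value 0.13 below the 4-library mean (-0.13), and genes of up to 1000 bases were 0.064 above it. In the other 3 libraries, the same 2 classes lay between -0.029 and 0.051. Across 8342 genes with a mean of at least 200, the Spearman correlation of length with fold change was -0.26, and 0.011 without that library; these genes share the 4 libraries and are not independent replicates. Genes called lower had a median length of 4709 bases, those called higher 2845 and all tested genes 3284. Of the 28 called lower, 10 were longer than 6000 bases, against 4 of the 34 called higher and 13.9% of all tested genes. The part of length in the individual calls was not tested beyond the fit with a length correction given below.

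**Figure D1:**
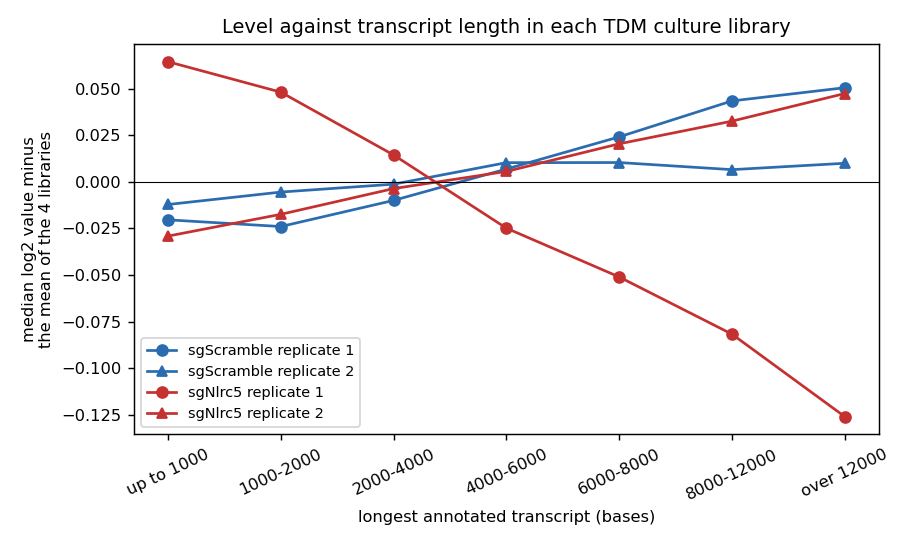
Median deviation of each library from the gene's mean over the 4 TDM culture libraries (vertical axis, log2) in 7 classes of longest annotated transcript (horizontal axis, bases), over the 8342 genes whose counts averaged 200 or more. The line of sgNlrc5 replicate 1 falls from 0.064 to -0.13, while the other 3 libraries stay between -0.029 and 0.051.

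The promoters of 7 called genes are shown as examples: a germline gene that rose and one that fell, the 3 hypoxia-related genes that fell, and the 2 class I genes that rose. The part of these sequences in the changes was not tested. Each sequence is RefSeq's window of 250 bases before to 50 bases after the annotated start, on the gene's strand, in build GRCm38.p6. The submitters' processing notes name build GRCm39, so windows were matched by symbol. In Tuba3b (chr6:145615713-145616012, plus strand) and Tex19.1 (chr11:121145893-121146192, plus strand), the capitals mark TCCCGC, a core bound by E2F6 that occurs at germline promoters. Tuba3b holds it on the strand printed and Tex19.1 on the other strand.
Tuba3b: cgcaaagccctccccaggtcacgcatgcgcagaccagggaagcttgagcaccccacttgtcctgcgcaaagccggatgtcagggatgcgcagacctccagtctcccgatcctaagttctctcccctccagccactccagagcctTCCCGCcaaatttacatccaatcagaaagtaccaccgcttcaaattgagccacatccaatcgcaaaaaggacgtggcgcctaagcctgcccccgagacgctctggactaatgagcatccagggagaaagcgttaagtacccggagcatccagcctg
Tex19.1: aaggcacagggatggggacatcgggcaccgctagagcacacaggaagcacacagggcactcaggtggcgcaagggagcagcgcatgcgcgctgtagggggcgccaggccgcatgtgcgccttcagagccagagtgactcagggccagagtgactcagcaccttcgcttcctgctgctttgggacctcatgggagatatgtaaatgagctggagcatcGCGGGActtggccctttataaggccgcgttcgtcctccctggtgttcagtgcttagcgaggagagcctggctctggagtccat
In Bnip3 (chr7:138909457-138909756, minus strand), Ero1a (chr14:45318523-45318822, minus strand) and Pfkp (chr13:6648722-6649021, minus strand), the capitals mark the cores ACGTG and GCGTG on either strand.
Bnip3: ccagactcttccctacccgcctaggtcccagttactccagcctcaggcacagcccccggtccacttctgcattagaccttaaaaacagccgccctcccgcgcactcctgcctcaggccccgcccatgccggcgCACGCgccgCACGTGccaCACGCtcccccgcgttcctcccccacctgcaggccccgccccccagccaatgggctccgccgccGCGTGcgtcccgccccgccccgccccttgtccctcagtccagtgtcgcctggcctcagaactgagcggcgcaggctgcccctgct
Ero1a: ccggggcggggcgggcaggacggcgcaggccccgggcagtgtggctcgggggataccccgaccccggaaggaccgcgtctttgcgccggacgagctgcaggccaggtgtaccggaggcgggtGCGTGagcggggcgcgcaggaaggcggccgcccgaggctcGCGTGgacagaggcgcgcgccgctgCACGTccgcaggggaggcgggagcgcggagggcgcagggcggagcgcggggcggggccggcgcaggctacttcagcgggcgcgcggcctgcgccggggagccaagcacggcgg
Pfkp: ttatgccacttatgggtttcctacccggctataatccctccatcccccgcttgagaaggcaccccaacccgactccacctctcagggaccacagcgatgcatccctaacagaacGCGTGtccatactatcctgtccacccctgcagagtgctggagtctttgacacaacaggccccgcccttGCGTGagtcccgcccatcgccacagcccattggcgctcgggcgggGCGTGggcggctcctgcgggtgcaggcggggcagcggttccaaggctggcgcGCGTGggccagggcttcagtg
In H2-D1 (chr17:35262844-35263143, plus strand) and B2m (chr2:122147437-122147736, plus strand), the capitals mark CCAAT, the NF-Y core, and TGACGC, a core of the X2 element of class I promoters, on either strand.
H2-D1: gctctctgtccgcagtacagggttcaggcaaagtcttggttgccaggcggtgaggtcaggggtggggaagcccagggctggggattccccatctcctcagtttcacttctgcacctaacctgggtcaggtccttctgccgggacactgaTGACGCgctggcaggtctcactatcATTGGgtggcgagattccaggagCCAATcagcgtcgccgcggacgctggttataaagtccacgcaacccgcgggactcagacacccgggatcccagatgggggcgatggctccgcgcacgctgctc
B2m: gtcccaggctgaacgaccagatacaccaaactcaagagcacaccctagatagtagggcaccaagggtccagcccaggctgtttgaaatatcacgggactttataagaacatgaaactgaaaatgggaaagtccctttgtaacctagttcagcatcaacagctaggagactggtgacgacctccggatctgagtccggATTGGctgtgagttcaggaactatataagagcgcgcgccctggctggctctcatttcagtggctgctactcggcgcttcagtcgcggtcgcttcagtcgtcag
Both germline windows held 16 CpG and 1 TCCCGC, a motif found in 20% of 32851 RefSeq windows of this length. Bnip3 held 5 hypoxia cores, of which 2 overlap as the palindrome CACGTG, Pfkp held 4 and Ero1a held 3; 43.8% of all windows held at least 1. H2-D1 held 2 CCAAT and 1 TGACGC and B2m held 1 CCAAT, motifs present in 37.4% and 7.4% of all windows. A gene can have several windows, and the windows of 1 chromosome were left out of all these counts. Per window, a hypoxia core stood in 26 of 34 windows of glycolysis genes (76.5%), 19 of 25 of other hypoxia targets (76%), 11 of 15 of germline genes (73.3%), 13 of 22 of genes called lower (59.1%) and 12 of 33 of genes called higher (36.4%). So germline windows held the core about as often as those of the hypoxia lists. Of the genes called higher, 25 of 34 had an entry, with a median of 10 CpG per window, and of those called lower 20 of 28, with a median of 21.5. The median was 20 in windows of glycolysis genes, 25 in those of other hypoxia targets and 16 in those of germline genes. Over all windows it was 7. Both hypoxia cores contain a CpG, and the part of CpG content in their shares was not tested. Capitals mark only the motifs named for a gene's own group. Unmarked, TCCCGC also stood in the printed windows of Bnip3, Ero1a, Pfkp and H2-D1. CCAAT stood unmarked in Tuba3b, Bnip3 and Pfkp, and a hypoxia core in Tuba3b and H2-D1. A match describes the letters in the window and is not a binding site.

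Nlrc5 (ENSMUSG00000074151), the targeted gene, stood at 22.9 and 12.7 with sgScramble and 57.4 and 78.6 with sgNlrc5, so both sgNlrc5 libraries lay above both sgScramble libraries. These values rest on 26, 12, 51 and 83 recovered reads. Its log2 fold change was 1.91 ± 0.34 (adjusted p = 0.012), and the call ended without sgNlrc5 replicate 2 (adjusted p = 0.087). Over the whole table, 62 genes (0.517%) were called, 34 higher (0.284%) and 28 lower (0.234%). In each of the 62 the groups did not overlap; among all tested genes, 19.3% had both sgNlrc5 libraries above and 19.3% both below. Changes over 2-fold were found in 19 called genes, 15 higher and 4 lower, while 28 called genes changed by less than 1.5-fold, 8 higher and 20 lower. The 2 sgScramble libraries differed by over 2-fold in 232 genes and the 2 sgNlrc5 libraries in 189, against 120 between the guide means. Among genes with a mean of at least 50 these counts were 17, 13 and 19. Without the intensity trend 2 genes were called, Tuba3b and the predicted gene Gm42822; the other called genes named here that are not predicted genes had adjusted p from 0.059 to 0.58.

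**Figure D2:**
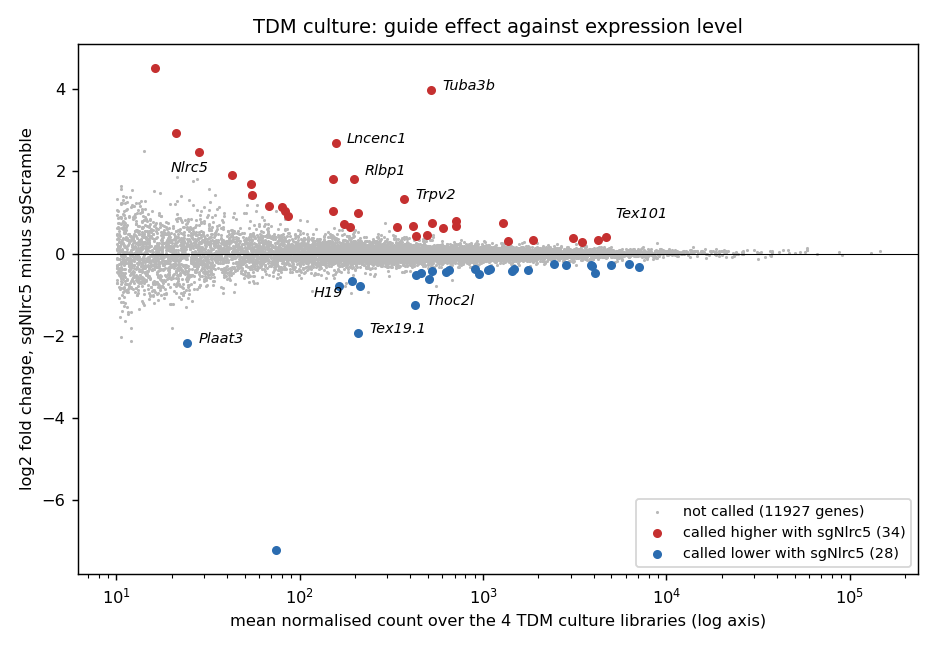
Mean normalised count over the 4 TDM culture libraries (horizontal log axis) against log2 fold change, sgNlrc5 minus sgScramble (vertical axis), for each of 11989 genes. Red points are the 34 genes called higher and blue points the 28 called lower; Tuba3b at 3.98 stands alone among genes of its level, and most other genes lie near 0.

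H2-D1 and B2m, 2 of the 7 tested genes of the class I list, were called higher, where 0.284% of all tested genes were. H2-D1, a classical heavy chain, stood at 2689 and 2647 with sgScramble and 3389 and 3582 with sgNlrc5, and its log2 fold change was 0.38 ± 0.050 (adjusted p = 6.4e-04). B2m, the light chain shared by class I molecules, stood at 3229 and 3014 with sgScramble and 3776 and 3814 with sgNlrc5, with a log2 fold change of 0.28 ± 0.050 (adjusted p = 0.012). In both genes every sgNlrc5 library was higher than every sgScramble library, by under 1.5-fold. The other 5 tested members of the class I list were not called, and the list's median was 0.28 (0.093 without sgScramble replicate 2). H2-T10, a nonclassical heavy chain, was at 17.6 and 21.2 with sgScramble and 32.6 and 43.6 with sgNlrc5 (log2 0.93 ± 0.34, adjusted p = 0.40), where the groups did not overlap but few reads lay behind each value. All 13 antigen processing genes and all 11 genes for promoter partners of NLRC5 missed the threshold, with medians of 0.03 and -0.0031. The call of B2m ended without sgScramble replicate 2 (adjusted p = 0.23). Class I genes are close copies of each other, so reads may have been divided between them by the counting, which is not given in the sources used here.

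Germline genes held both a large rise and a large fall. Of 63 germline genes in the list, 16 were listed and 15 tested. Of the 15, 3 were called higher and 1 lower, where 0.284% and 0.234% of all tested genes were. Their median log2 fold change was 0.10, against 0.00033 over all tested genes. The list was drawn up with earlier results of these data known, so its count of called genes is not an independent result. Tuba3b (ENSMUSG00000067338), an alpha tubulin known from testis, stood at 58.2 and 64.7 with sgScramble and 983 and 985 with sgNlrc5. The sgNlrc5 libraries lay more than 10-fold above the sgScramble libraries and within 2 counts of each other. Its log2 fold change was 3.98 ± 0.12 (adjusted p = 3.4e-12), and the range over all alternatives was 3.90 to 4.06. Reads of near-identical tubulin copies may be included. Ctag2l1, of a cancer-testis antigen family with close copies, stood at 27.3 and 30.8 with sgScramble and 79.9 and 80.5 with sgNlrc5, a log2 fold change of 1.44 ± 0.25 (adjusted p = 0.012). Tex101, which encodes a germ cell surface protein, was already abundant and stood at 4009 and 4053 with sgScramble and 5461 and 5288 with sgNlrc5, a log2 fold change of 0.41 ± 0.045 (adjusted p = 8.0e-05). Tex19.1 (also a germ cell gene, which restrains retrotransposons) went the other way and stood at 324 and 337 with sgScramble and 87.7 and 83.3 with sgNlrc5. Here both sgNlrc5 libraries lay below both sgScramble libraries, with a log2 fold change of -1.94 ± 0.14 (adjusted p = 8.2e-07). Of the 11 uncalled members, Magea8, of the MAGE-A family, was at 39.7 and 32.9 with sgScramble and 13.5 and 18.0 with sgNlrc5 (log2 -1.16, adjusted p = 0.26). Rhox5, a homeobox gene and the most abundant germline gene tested, was at 8886 and 9037 with sgScramble and 10166 and 9142 with sgNlrc5 (log2 0.11 ± 0.049, adjusted p = 0.54). Without sgNlrc5 replicate 1 or 2 the call of Ctag2l1 ended (adjusted p = 0.092 and 0.052).

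Genes of embryonic stem cells and of DNA methylation were examined beside the germline genes. Lncenc1, a long noncoding RNA known from embryonic stem cells, stood at 43.2 and 39.2 with sgScramble and 249.7 and 296 with sgNlrc5, a log2 fold change of 2.69 ± 0.18 (adjusted p = 3.1e-07). It was the 1 of 4 tested stem cell genes that was called, where 0.517% of all tested genes were called. Dppa4, a chromatin factor of pluripotent cells, was at 281 and 308 with sgScramble and 376 and 381 with sgNlrc5 (log2 0.36 ± 0.11, adjusted p = 0.21). None of 21 DNA methylation writers, readers and erasers was called, and each had a 95% interval within 1.5-fold. Uhrf1, which brings the maintenance methyltransferase to replicated DNA, was at 7994 and 7994 with sgScramble and 8234 and 8468 with sgNlrc5 (log2 0.063 ± 0.041). Of 17 imprinted genes, 1 was called: H19, an imprinted noncoding RNA, at 263 and 281 with sgScramble and 159 and 152 with sgNlrc5, with a log2 fold change of -0.80 ± 0.13 (adjusted p = 0.0069). The median of the imprinted list was -0.14, with 13 of 17 below 0 and 10 with both sgNlrc5 libraries below (19.3% of all tested genes). Peg10, a retrotransposon-derived imprinted gene, was at 5542 and 5666 with sgScramble and 4658 and 5123 with sgNlrc5 (log2 -0.20 ± 0.050, adjusted p = 0.11).

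Of the 88 cilium and tubulin genes tested outside the germline list, 1 was called higher and 1 lower, where 0.517% of all tested genes were called. Of 78 motile cilium genes in the list, 36 were listed and 29 tested, and the median over these was -0.02 (0.0051 without sgNlrc5 replicate 1). Ccdc40, which sets the spacing of axonemal dynein arms, stood at 61.7 and 73.2 with sgScramble and 232 and 244 with sgNlrc5, a log2 fold change of 1.81 ± 0.17 (adjusted p = 1.1e-05). Its partner in that complex, Ccdc39, was at 13.2 and 22.3 with sgScramble and 32.6 and 30.3 with sgNlrc5 (log2 0.83 ± 0.38, adjusted p = 0.53), close to the lower limit of the tested range. Cfap54, of the central apparatus of the axoneme, stood at 534 and 480.5 with sgScramble and 348 and 354 with sgNlrc5, a log2 fold change of -0.53 ± 0.10 (adjusted p = 0.014). In Ccdc40 the sgNlrc5 libraries were both higher, and in Cfap54 both lower. None of 47 primary cilium and transport genes was called; 44 had an interval within 1.5-fold and all 47 within 2-fold. Bbs7, of the BBSome coat, at log2 -0.31 ± 0.13 (adjusted p = 0.50), and Ift80, of the intraflagellar transport train, at -0.20 ± 0.088 (adjusted p = 0.51), had the smallest p among these. All 12 other tubulin genes tested were held within 1.5-fold. Tubb6, a beta tubulin, was at 1529 and 1455 with sgScramble and 1265 and 1313 with sgNlrc5 (log2 -0.21 ± 0.060, adjusted p = 0.20). The Cfap54 call ended without sgScramble replicate 1 (adjusted p = 0.12) and without sgNlrc5 replicate 1 (0.053), the library with lower values for long genes.

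**Figure D3:**
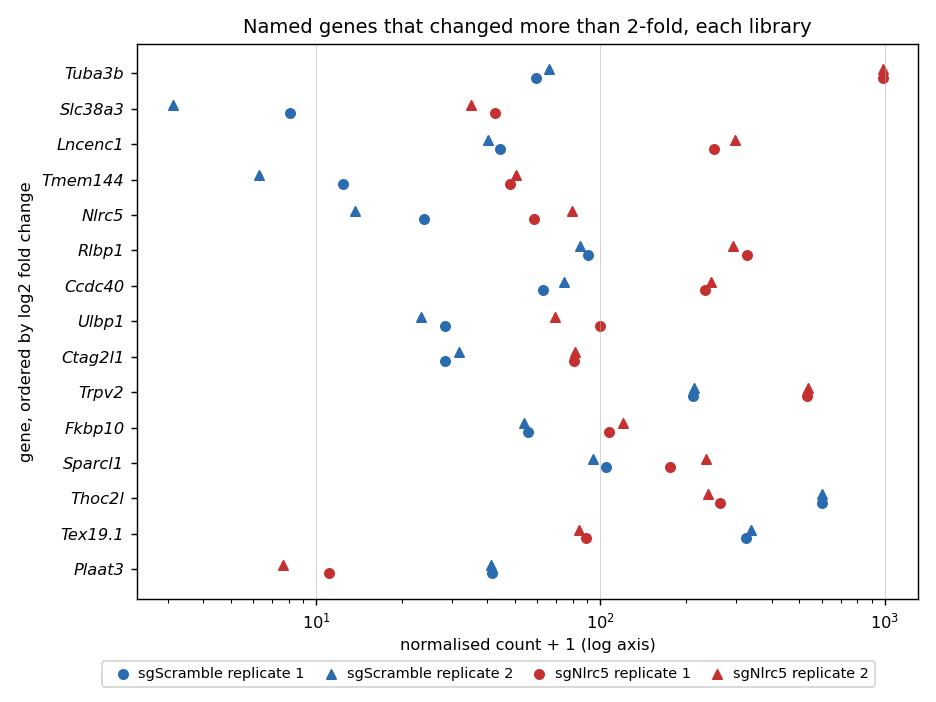
Normalised count + 1 (horizontal log axis) in each of the 4 TDM culture libraries for the 15 called genes named in the text, predicted genes left out, that changed over 2-fold (vertical axis, ordered by log2 fold change). Blue marks are sgScramble, red marks are sgNlrc5, circles are replicate 1 and triangles replicate 2; in every gene the red and blue marks do not overlap, and in the bottom 3 (Thoc2l, Tex19.1, Plaat3) the red marks lie to the left.

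The other called genes over 2-fold were of mixed function. Slc38a3, a glutamine transporter, stood at 7.06 and 2.12 with sgScramble and 41.6 and 34.1 with sgNlrc5, a log2 fold change of 2.95 ± 0.52 (adjusted p = 0.012) that rests on 8 and 2 reads in the sgScramble libraries. Tmem144, a membrane protein gene, stood at 11.5 and 5.30 with sgScramble and 47.2 and 49.2 with sgNlrc5 (log2 2.47 ± 0.42, adjusted p = 0.0083). Rlbp1, a retinaldehyde-binding protein, stood at 89.1 and 83.8 with sgScramble and 327 and 291 with sgNlrc5 (log2 1.82 ± 0.15, adjusted p = 1.9e-06). In these 3 genes the sgNlrc5 libraries were at least 3-fold above the sgScramble libraries. Trpv2, a cation channel, stood at 211 and 213 with sgScramble and 532 and 534 with sgNlrc5 (log2 1.33 ± 0.10, adjusted p = 1.4e-06), with replicates that differed by less than 2% in each group. Fkbp10, a collagen chaperone (log2 1.05), and Sparcl1, a matricellular protein (1.03), rose by just over 2-fold. Among 3 tested ligands of the natural killer receptor NKG2D, Ulbp1 was called, at 27.3 and 22.3 with sgScramble and 99.0 and 68.2 with sgNlrc5 (log2 1.70 ± 0.28, adjusted p = 0.0078), and Raet1d and Raet1e were not (log2 0.11 ± 0.17 and 0.26 ± 0.18). Thoc2l, a relative of the mRNA export subunit gene Thoc2, stood at 599.8 and 602 with sgScramble and 262 and 238 with sgNlrc5 (log2 -1.26 ± 0.10, adjusted p = 1.4e-06). Thoc2 itself was at 1074 and 1160.4 with sgScramble and 962 and 1166 with sgNlrc5 (log2 -0.076 ± 0.082, adjusted p = 0.84). Reads may be shared between Thoc2l and Thoc2, so both values are uncertain. Thoc2l was the 1 of 14 export genes called, where 0.517% of all tested genes were called. The export and NKG2D lists were drawn up with earlier results of these data known, so a called member is not an independent result. Plaat3, a phospholipase and acyltransferase, stood at 40.6 and 40.3 with sgScramble and 10.1 and 6.63 with sgNlrc5 (log2 -2.17 ± 0.40, adjusted p = 0.017). Calls ended for Slc38a3 (adjusted p = 0.16), Ulbp1 (0.15), Tmem144 (0.080) and Fkbp10 (0.082) without sgNlrc5 replicate 1, and for Tmem144 (0.051), Fkbp10 (0.10) and Sparcl1 (0.066) without sgNlrc5 replicate 2. Fkbp10 also missed the threshold with quantile normalisation (0.058).

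In addition, 3 predicted genes were called and are named after their values were seen. Gm42822 had 172 and 137 recovered reads with sgScramble and 0 and 0 with sgNlrc5, at least 96.5-fold lower when 3 reads are allowed over the sgNlrc5 group. Gm14964 had 0 and 1 reads with sgScramble and 29 and 33 with sgNlrc5, a ratio of 66.2 with a 95% counting interval of 11.4 to 2656. 4930461G14Rik stood at 52.0 and 47.7 with sgScramble and 117 and 104 with sgNlrc5. So 1 of these 3 had no reads in the sgNlrc5 libraries and another had almost none in the sgScramble libraries. Bounds and intervals cover counting error only.

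Between 1.5-fold and 2-fold, the genes called higher were Padi3, which converts arginine to citrulline in proteins (log2 1.00), Vill, a villin relative (0.92), Selenop, the plasma selenium carrier (0.79), and Irx3, a homeobox gene (0.75). They also included Tmtc3, an O-mannosyltransferase (0.74), Gas7 (0.72), Rasa2, which switches Ras off (0.68), Gsta3, a glutathione transferase (0.67), Synpo, an actin-associated protein (0.64), Fgfr1, a growth factor receptor (0.64), and Ptgr1, a prostaglandin reductase (0.63). Tmtc3 was the most precise of them, at 979.9 and 950.4 with sgScramble and 1576 and 1644 with sgNlrc5, with an SE of 0.062 on log2. Genes called lower in this range, besides H19 and Bnip3, were Smtnl2, a smoothelin relative (log2 -0.78), and Xylt1, which starts glycosaminoglycan chains (-0.66). Xylt1 and Col5a1, a collagen V chain at 1133 and 1077 with sgScramble and 781 and 786 with sgNlrc5 (log2 -0.50 ± 0.068, adjusted p = 0.0012), were the 2 of 23 matrix genes called. Over all tested genes, 0.517% were called. Fibroblast markers summed to 413 and 398 with sgScramble and 276 and 367 with sgNlrc5, and their part in these values was not tested. The calls of Vill, Gas7, Fgfr1, Smtnl2 and Xylt1 each ended without 1 library or more (adjusted p up to 0.17, 0.12, 0.20, 0.25 and 0.14), among them sgNlrc5 replicate 1 in every case. The 5 also missed the threshold with quantile normalisation (adjusted p from 0.058 to 0.11).

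Hypoxia-related genes mostly had slightly lower values with sgNlrc5. Of the 59 tested, 3 were called, all lower, where 0.234% of all tested genes were called lower. Of 24 hypoxia targets outside glycolysis, 2 were called lower and none higher; the median was -0.18, 23 of 24 lay below 0, and 16 had both sgNlrc5 libraries below both sgScramble libraries (19.3% of all tested genes). Bnip3, a mitophagy receptor, stood at 567 and 652 with sgScramble and 457 and 340.0 with sgNlrc5, a log2 fold change of -0.63 ± 0.12 (adjusted p = 0.021). Ero1a, an oxidase that forms disulfide bonds in the endoplasmic reticulum, stood at 7398 and 8319 with sgScramble and 6035 and 6520.1 with sgNlrc5 (-0.32 ± 0.055, adjusted p = 0.0083). In both genes the groups did not overlap, and the gap between the closest libraries of the 2 groups was smaller than the gap between the farthest replicates of 1 group. Bnip3l, a relative of Bnip3, was at 1615 and 1817 with sgScramble and 1344 and 1488 with sgNlrc5 (log2 -0.28 ± 0.069, adjusted p = 0.11), and Ndrg1, a stress-response gene, at 606 and 788 with sgScramble and 515 and 518 with sgNlrc5 (log2 -0.42 ± 0.10, adjusted p = 0.10). Adm, which encodes the vasodilator adrenomedullin, was the 1 target above 0, at 45.9 and 46.7 with sgScramble and 74.2 and 90.0 with sgNlrc5 (log2 0.81 ± 0.23, adjusted p = 0.20).

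Of 22 glycolysis genes, 1 was called lower and none higher, where 0.234% of all tested genes were called lower. The median was -0.09, all 22 lay below 0, and 13 had both sgNlrc5 libraries below, where 19.3% of all tested genes did. Pfkp, the platelet-type phosphofructokinase, stood at 4189.6 and 4457 with sgScramble and 3355 and 3699.9 with sgNlrc5 (log2 -0.29 ± 0.054, adjusted p = 0.015). Hk2, an inducible hexokinase, was at 2116 and 2077 with sgScramble and 1764 and 1777 with sgNlrc5 (log2 -0.24 ± 0.053, adjusted p = 0.055), and Ldha, lactate dehydrogenase A, at 32106 and 33634 with sgScramble and 30708 and 29213 with sgNlrc5 (log2 -0.13 ± 0.041, adjusted p = 0.26). For 21 of the 22 the 95% interval lay within 1.5-fold. None of 13 genes of the oxygen-sensing machinery was called (median 0.03, but -0.071 without sgNlrc5 replicate 2 and -0.014 without sgScramble replicate 1). Egln3, a prolyl hydroxylase that is itself induced by hypoxia, was the lowest of them at 191 and 259 with sgScramble and 145 and 113 with sgNlrc5 (log2 -0.79 ± 0.17, adjusted p = 0.053), and Hif1a, the factor's inducible subunit, was at 2747 and 2721 with sgScramble and 2567 and 2546 with sgNlrc5 (log2 -0.10 ± 0.049, adjusted p = 0.60). As medians of deviations from the 4-library mean, the hypoxia targets stood at 0.023 and 0.17 in the sgScramble libraries and -0.14 and -0.062 in the sgNlrc5 libraries, so sgScramble replicate 2 was the farthest from 0. Glycolysis genes stood at 0.008, 0.091, -0.047 and -0.071. Without sgScramble replicate 2 the medians were -0.14 and -0.05, and the calls of Ero1a (adjusted p = 0.15) and Pfkp (0.14) ended. Without sgScramble replicate 1, 7 of the 24 other targets were called lower, among them Ndrg1 (adjusted p = 1.3e-04), and Egln3 passed as well (2.7e-04). Egln3 also passed without sgNlrc5 replicate 1 (0.028), at a mean of at least 50 (0.047), with equal sums (0.041) and with the replicate block (0.0041). Hk2 passed without sgNlrc5 replicate 2 (0.042), at a mean of at least 50 (0.047), with equal sums (0.045) and with the block (0.038). Bnip3l passed with the block (0.018) and when either sgScramble replicate 1 (0.010) or sgNlrc5 replicate 2 (0.027) was left out, Ndrg1 with the block (0.0082), and Ldha with quantile normalisation (0.011) and without sgNlrc5 replicate 1 (0.021). The call of Bnip3 ended without sgNlrc5 replicate 2 (0.069) and with quantile normalisation (0.12), and that of Pfkp also without sgNlrc5 replicate 1 (0.059).

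**Figure D4:**
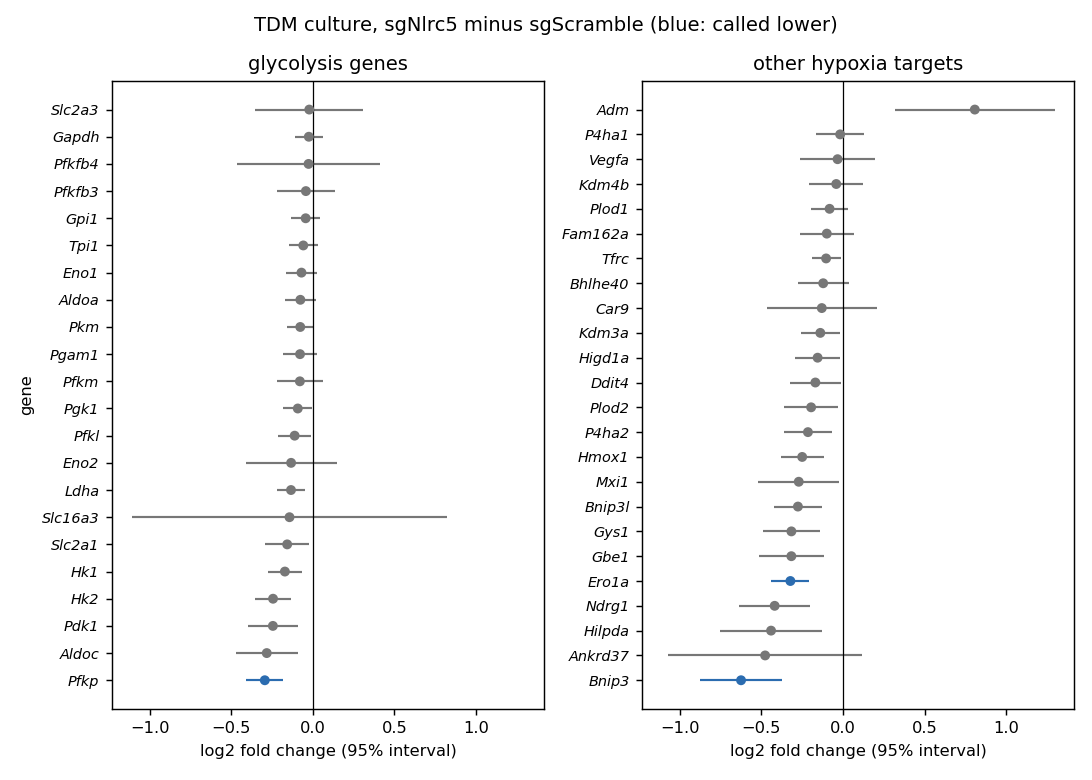
Log2 fold change, sgNlrc5 minus sgScramble in TDM culture (horizontal axis, points), with 95% intervals (bars) for 22 glycolysis genes and 24 other hypoxia targets (vertical axes), n = 2 and 2 libraries. The 3 blue genes (Pfkp, Ero1a and Bnip3) were called lower; all glycolysis points and 23 of 24 target points lie below 0, most of them by less than 0.5.

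With a correction for transcript length, 141 genes were called, 76 higher and 65 lower, and all 62 genes called without it were kept. Under it 5 glycolysis genes and 6 other hypoxia targets were called lower, with medians of -0.11 and -0.19. Egln3 (adjusted p = 0.0051), Ndrg1 (0.018), Bnip3l (0.011), Hk2 (0.016), Ldha (4.0e-04) and Tubb6 (0.036) were among the added calls. This correction was chosen after the length pattern had been seen. Several genes called lower without it have long transcripts, named here after their values were seen. Ahnak, a very large scaffold protein, stood at 2074 and 1942 with sgScramble and 1368 and 1662 with sgNlrc5 (log2 -0.41 ± 0.075), Htt, the huntingtin gene, at 1696 and 1589 with sgScramble and 1202 and 1253 with sgNlrc5 (-0.42 ± 0.061), and Map1b, a microtubule-associated protein, at 1171 and 1244 with sgScramble and 858 and 989 with sgNlrc5 (-0.39 ± 0.075). Itga4, an integrin subunit, stood at 4706 and 4681 with sgScramble and 3169.8 and 3647 with sgNlrc5 (-0.47 ± 0.058). Without sgNlrc5 replicate 1, the calls of Ahnak (adjusted p = 0.069) and Map1b (0.12) ended and those of Htt and Itga4 did not.

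Interferon-induced genes differed more between the 2 sgNlrc5 libraries than between the guides. None of 31 type I interferon genes was called. Their median deviation was -0.056 and -0.13 in the sgScramble libraries, -0.21 in sgNlrc5 replicate 1 and 0.53 in sgNlrc5 replicate 2. Irf7, a factor that amplifies interferon production, was at 263 and 213 with sgScramble and 231 and 515 with sgNlrc5 (log2 0.54 ± 0.24, adjusted p = 0.52), and Isg15, a ubiquitin-like modifier, at 424 and 403 with sgScramble and 414 and 709 with sgNlrc5 (log2 0.39 ± 0.16, adjusted p = 0.50). Both genes were high in sgNlrc5 replicate 2 and at sgScramble levels in replicate 1. The median fold change of the list was 0.23; without sgNlrc5 replicate 1 it was 0.64 with 12 genes called higher, and without replicate 2 it was -0.07 with none called higher and 1 lower. Of 15 interferon gamma genes none was called (median 0.22), and their deviation was 0.45 in sgNlrc5 replicate 2 and -0.084 in replicate 1. Without sgNlrc5 replicate 1 the median of these 15 was 0.56 with 3 called higher, and without replicate 2 it was 0.018 with none called.

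Most of the table stayed flat within stated limits. For 9311 of 11989 genes the 95% interval of the fold change lay within 1.5-fold in either direction, and for 10626 within 2-fold. The precision followed the level: 98.1% of 4893 genes with a mean of 200 to 1000 were held within 1.5-fold, 99.9% of 3025 genes between 1000 and 5000, and 100% of 434 genes at 5000 or more. Of 1820 genes between 50 and 200 the share was 57.9%, and of 1817 genes between 10 and 50 it was 0.11%. In the last class the median SE was 0.41 on log2.

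Genomic neighbours of Nlrc5 and the core machinery of the cell were mostly held flat. None of 27 tested chromosome 8 neighbours was called; 25 had an interval within 1.5-fold and the median was 0.03. Adgrg1, an adhesion receptor and 1 of these neighbours, was at 1525 and 1568 with sgScramble and 1315 and 1269 with sgNlrc5 (log2 -0.26 ± 0.059, adjusted p = 0.066) and was called lower with the length correction (0.012) and with the replicate block (0.042). None of 9 other NLR genes was called, but only 3 of them were held within 2-fold. Among 31 proteasome genes, 38 nuclear respiratory chain genes and 25 proliferation genes none was called and all had intervals within 1.5-fold. Psmc3, a proteasome ATPase, was at log2 0.067 ± 0.044, Atp5b, of the ATP synthase, at 0.041 ± 0.038, and Top2a, a topoisomerase of dividing cells, at 0.073 ± 0.041. Of 76 ribosomal protein genes none was called, 75 were held within 1.5-fold and 70 lay above 0, with a median of 0.05; Rplp0, a stalk protein, was at 0.032 ± 0.040. Their median deviation was 0.08 in sgNlrc5 replicate 1 and between -0.033 and -0.013 in the other 3 libraries. With the length correction 59 of the 76 lay above 0 (median 0.031). Without that library 27 of the 76 lay above 0 (median -0.0081), and without sgNlrc5 replicate 2 all 76 did, with 5 called higher (median 0.10). All 19 melanocyte genes were uncalled, 18 of them within 1.5-fold. None of 18 p53 targets, 22 unfolded protein response genes, 13 heat shock genes, 11 immediate early genes and 19 cholesterol synthesis genes was called. Of the 11 immediate early genes, 9 were held within 1.5-fold. Ier3, the most abundant of them, was at 1877 and 2114 with sgScramble and 1516 and 1718 with sgNlrc5 (log2 -0.30 ± 0.070, adjusted p = 0.067). It was called lower with the length correction (0.0038). Ccng1, a p53 target, was at 0.064 ± 0.041, Hspa5, the main chaperone of the endoplasmic reticulum, at 0.057 ± 0.039, and Hsp90ab1, a cytosolic chaperone, at 0.039 ± 0.039. Apaf1, of the apoptosome, was at 0.12 ± 0.068, and Ddx39a, an mRNA export helicase, at 0.058 ± 0.047.

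The same guides in the TDMa line moved far more genes, and often in another direction. There 4156 of 12138 tested genes were called (34.2%), 2100 higher and 2056 lower. Of the 62 genes called in TDM, 47 were tested in TDMa and 19 were called in the same direction, which is 30.6% of the TDM calls and 0.457% of the TDMa calls. Of the 23 tested genes that had risen in TDM, 11 rose, 5 fell and 7 were not called. Of the 24 that had fallen, 8 fell, 14 rose and 2 were not called. The difference between lines, tested as an interaction, was called in 34 of the 47 genes, beside 22.7% of 11492 genes tested.

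The 3 called hypoxia-related genes went opposite ways in the lines. In TDMa, Bnip3 rose by 1.45, Ero1a by 1.00 and Pfkp by 0.72 on log2, and the TDM minus TDMa differences were -2.07, -1.33 and -1.01 (adjusted p = 1.7e-09, 3.2e-09 and 1.1e-09). Over the lists, 16 of 22 glycolysis genes and 17 of 23 other hypoxia targets were called higher in TDMa and none lower, with medians of 0.42 and 0.48. Of 12 genes of the oxygen-sensing machinery tested in TDMa, 3 were called higher and 3 lower. Egln3 was 1 of those called lower there (log2 -0.61, adjusted p = 0.0082). Its difference between lines was -0.19 ± 0.25 (SE, adjusted p = 0.65). Nlrc5 rose less in TDM than in TDMa (difference -1.75, adjusted p = 2.6e-05), as did H2-D1 (-4.49, adjusted p = 3.2e-20). With sgScramble, H2-D1 averaged 2668 in TDM and 131 in TDMa, and with sgNlrc5 it averaged 3485 and 3841. So for H2-D1 the lines differed mainly at the sgScramble level. Nlrc5 averaged 17.8 in TDM and 248 in TDMa with sgScramble, and 68.0 and 3144 with sgNlrc5. Ccdc40 was at -0.80 in TDMa, where it was not called, and differed between lines by 2.60 (adjusted p = 1.8e-05). Its TDMa counts were low, with means of 21.5 with sgScramble and 12.2 with sgNlrc5. Thoc2l rose by 0.50 in TDMa (difference -1.76, adjusted p = 7.0e-10), and Cfap54 by 0.54 (difference -1.07, adjusted p = 5.9e-09). Irx3 and Sparcl1 rose in both lines, in TDMa by 1.02 and 1.29, and their differences between lines were -0.27 ± 0.15 and -0.26 ± 0.16 (SE, adjusted p = 0.22 and 0.28). Tuba3b, Lncenc1, Tex19.1, Tex101, Ctag2l1, Ulbp1, Plaat3 and H19 are not analysed here in TDMa. Each line had its own sgScramble libraries and was normalised alone.

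**Figure D5:**
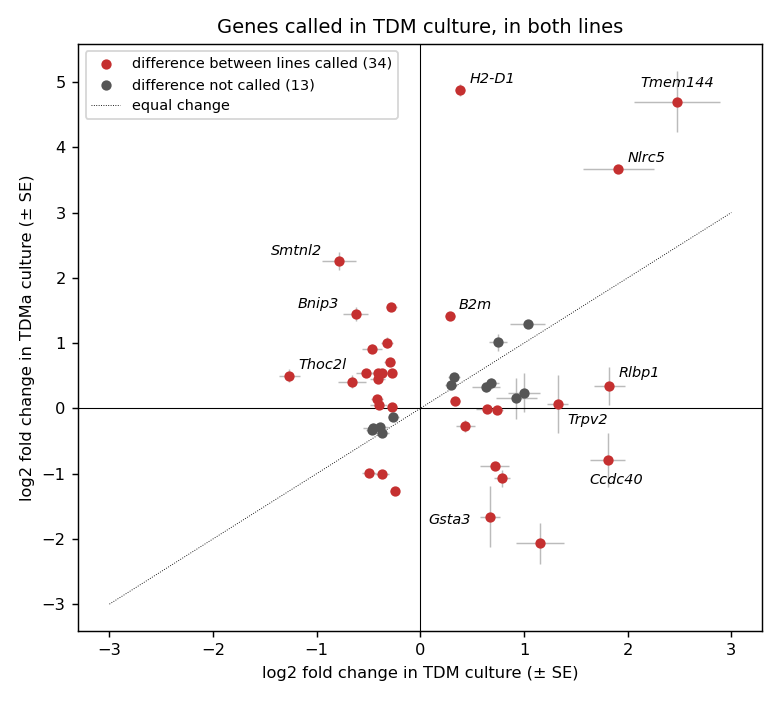
Log2 fold change, sgNlrc5 minus sgScramble, in TDM culture (horizontal axis) and TDMa culture (vertical axis) for the 47 genes called in TDM and tested in both lines; bars are ± 1 SE, n = 2 and 2 libraries in each line. Red points are the 34 genes whose change differed between lines and grey points the 13 for which no difference was called; the upper left holds the 14 genes that fell in TDM and were called higher in TDMa, among them Bnip3.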

How the data were processed

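RNA sequencing of total RNA had been done with the NEBNext Ultra II Directional kit, per the labels. The deposited values were log2 of a normalised count plus 1, per the labels and the file headers. STAR 2.7.10a, FastQC 0.12.0 and DESeq2 1.36.0 appear in the submitters' processing notes, with mm39 and GRCm39 as builds. Which annotation, counter, strand setting and listing filter were used is not given in the sources used here. After undoing the log, whole reads were recovered from the step between low values, with 100% of those checked (at most 2000 steps) whole to within 0.1. A pseudocount of 1 and a minimum mean of 10 were used. Each line was fitted alone with limma 3.58.1 (R 4.3.3) with an intensity trend, two-sided; the fit was tested on simulated data. The difference between lines was an interaction term. Named genes were Nlrc5, called genes over 1.5-fold other than predicted genes, called list members, the class I, hypoxia, germline and cilium members with the smallest p, and the most abundant members of other lists, not all of which are printed; some named by the rule are not reported here. Members and lists were chosen with earlier results of these data known. Alternatives covered the trend, pseudocount, filter, scaling, voom, each library left out, a replicate block and transcript length (GENCODE M21, matched by identifier for 99.8% of tested genes). Tumour libraries were not used.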

Additional observations from a re-analysis of the deposited data

Results flagged for a closer look

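The change with the guide differed between TDM and TDMa culture, by the interaction test, in 24 genes named in the text. The values below are log2 fold changes in TDM minus those in TDMa. Genes that rose in both lines, and by less in TDM, were H2-D1 (-4.49), B2m (-1.13), Nlrc5 (-1.75) and Tmem144 (-2.23). H2-D1 differed between lines mainly at the sgScramble level (mean 2668 in TDM and 131 in TDMa, each line normalised alone). B2m and Nlrc5 were lower in TDM than in TDMa with either guide. Tmem144 averaged only 8.38 in TDM and 1.43 in TDMa with sgScramble.

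Genes that fell in TDM and were called higher in TDMa were Smtnl2 (-3.05), Bnip3 (-2.07), Thoc2l (-1.76), Ero1a (-1.33), Xylt1 (-1.07), Cfap54 (-1.07), Pfkp (-1.01), Ahnak (-0.86) and Htt (-0.56). Nr4a3, an orphan nuclear receptor chosen after its values were seen, belonged with them (-1.38). Col5a1 (0.50) and Anxa1, a phospholipid-binding protein also chosen after its values were seen (1.02), fell in both lines, and by less in TDM. Anxa1's own call in TDM ended without sgScramble replicate 1 (adjusted p = 0.079) and 2 (0.14). That of Nr4a3 ended with quantile normalisation (0.082), without sgScramble replicate 2 (0.095) and without sgNlrc5 replicate 1 (0.16).

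Genes that rose in TDM and were called lower in TDMa were Gsta3 (2.33), Selenop (1.86) and Gas7 (1.59). Gsta3 averaged only 23.4 with sgScramble and 7.09 with sgNlrc5 in TDMa. Those that rose in TDM and were not called in TDMa were Ccdc40 (2.60), Rlbp1 (1.48), Trpv2 (1.26), Tmtc3 (0.76) and Synpo (0.66).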

How the results depend on the processing

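The count of 62 called genes moved to 2 without the intensity trend (1 higher, 1 lower) and to 141 with the length correction chosen after seeing the data (76 and 65). Leaving out 1 library gave 62 to 146 genes, with 37 to 61 higher and 18 to 87 lower: 99 without sgScramble replicate 1 (61 higher), 146 without sgNlrc5 replicate 2 (59 higher, 87 lower) and 62 without sgNlrc5 replicate 1 (18 lower). Quantile normalisation left 16 genes called lower. With the replicate block 122 genes were called, 62 higher and 60 lower. Same-numbered libraries did not deviate together (r = -0.024 over genes). A single correlation over all genes cannot settle whether these libraries were handled as pairs. At a mean of at least 50, the 5 called genes with a lower mean were not tested, so that setting was not among their alternatives. Of the 62 genes, 62 stayed called at a pseudocount of 5 and with equal sums, 57 at a mean of at least 50, without a filter and with voom, 41 with quantile normalisation, and 51, 43, 35 and 51 without sgScramble replicate 1, 2 and sgNlrc5 replicate 1, 2. In TDMa the 4156 calls fell to 1581 without the trend and to between 2512 and 3335 without 1 library, and the 2604 differences between lines to 1196 without the trend. The 9311 genes held within 1.5-fold ranged from 8716 to 9469. Of 43 called genes named in the text, predicted genes left out, 22 kept their call in every alternative except the fit without a trend, and 0 changed sign. The uncalled genes that changed sign were Irf7 (-0.038 without sgNlrc5 replicate 2, -0.038 to 1.12 with any 1 library left out), Rplp0 (-0.010 without sgNlrc5 replicate 1, -0.010 to 0.075 with any 1 library left out) and Thoc2 (0.062 without sgNlrc5 replicate 1, -0.22 to 0.062 with any 1 library left out). The cause of these shifts was not tested. Genes with a mean of 10 to 50 had a median SE of 0.41, and those of 5000 or more 0.043.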

Other observations

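Axl and Mertk, 2 receptor kinases of the TAM family chosen after their values were seen, were called lower with the length correction and not without it, at -0.27 and -0.45 on log2 in that fit. One listed gene below the level of testing, the predicted gene Gm37134, was called when no filter was used, with 10.6 and 22.3 normalised counts with sgScramble and 0 and 0 with sgNlrc5.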
